A study of Mus musculus with 6 samples.

Results

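The Hippo pathway transcripts examined here were 10 genes of a table of 34745, chosen by name: the transcription factors Tead1, Tead2, Tead3 and Tead4, their coactivators Yap1 and Wwtr1, the kinase Lats2, and the target genes Ctgf, Cyr61 and Ankrd1. They were measured by RNA sequencing of primary mouse renal fibroblasts, wild-type cells grown out of enzyme-digested kidney. The cells were cultured alone (3 libraries) or for 24 h beneath a 0.4-μm transwell insert holding Th17 cells (3 libraries), so that medium but no cell contact was shared, and only the fibroblasts below were collected. The Th17 cells had been induced from mouse CD4+ T cells with IL-1β, IL-6, IL-23 and an antibody to IFN-γ. The age of the mice, how many mice gave cells, and whether the lone wells held an empty insert were not given in the sources used here. Nor was it given whether libraries of a group came from separate cultures, so SD, SE and p measure the spread between these libraries only.

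In the Hippo pathway, the MST kinases act on the LATS kinases. LATS phosphorylates the coactivator YAP and its relative TAZ, which Wwtr1 encodes, and this holds them out of the nucleus. When the kinases are less active, YAP and TAZ enter the nucleus and bind TEAD factors on DNA, since they cannot bind DNA themselves. In fibroblasts this output rises on stiff surfaces and under tension and drives matrix and cytoskeletal genes, with Ctgf, Cyr61 and Ankrd1 as its usual readouts and Lats2 as a feedback target. TEAD proteins also carry a palmitate, and the study followed the palmitoylation of TEAD4 in tubular epithelial cells. Whether the transcripts of the same pathway differ in fibroblasts exposed to Th17 cells is the question of this comparison. Transcript counts report neither YAP localisation nor TEAD palmitoylation.

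Library totals lay between 12050529 and 13209581 fragment counts, and none of the libraries was a copy of another. Levels between libraries are given in CPM, that is counts divided by library size after scaling by TMM factors. A gene passed the test with an adjusted p below 0.05 by edgeR's quasi-likelihood test over the 13088 genes tested, and the study's own limit, a fold change above 2, is named where it was added. The fibroblast markers were abundant, with Col1a1, Col1a2, Pdgfra, Pdgfrb, Dcn, Lum, Vim and Thy1 summing to between 29749 and 31611 CPM alone and between 13408 and 14897 with Th17 cells. Most of each sum was Col1a1 and Col1a2. Of these 8 genes 7 fell, beside 20.0% of all genes tested. Dcn rose, from a mean of 505 CPM to 1429 CPM (log2 fold change 1.5, edgeR adjusted p = 8.74e-08). T cell markers stayed low in every library, with 8 of 10 at 3 counts or fewer throughout, Cd3d, Cd2 and Il17a at 0, and summed levels of 2.41 to 3.32 CPM alone and 2.12 to 3.35 CPM with Th17 cells. Most of each sum was Trac, with 20 to 40 counts alone and 27 to 41 with Th17 cells. Cd3e had 6 counts in cocultured replicate 3. Macrophage markers summed to between 57.5 and 60.3 CPM alone and between 19.9 and 21.1 CPM with Th17 cells. Of the 5 tested 4 fell, beside 20.0% of all genes tested. Cd14 did not pass, with a mean of 11.2 CPM in both groups. Lyz2 fell from a mean of 27.7 CPM to 3.33 CPM, and Adgre1 from 71, 47 and 55 counts to 0 in every cocultured library. The 8 tubular epithelial markers summed to between 3.89 and 5.69 CPM alone and between 1.49 and 1.71 CPM with Th17 cells, with Umod at 0 counts. The 6 endothelial markers summed to between 120 and 128 CPM alone and between 269 and 306 CPM with Th17 cells, nearly all of it Flt1, while Kdr fell from between 65 and 74 counts to 1 or 2 counts and Pecam1 did not pass the test. The part of these cell types in the results below was not tested, and in bulk RNA fewer cells of a type and less RNA per cell cannot be told apart.

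With Th17 cells, Tead4 and Lats2 rose, Wwtr1 and Ankrd1 fell, and the other 6 transcripts did not pass the test. Tead4 was 3.70-fold higher and Ankrd1 2.35-fold lower, while Wwtr1 and Lats2 moved by less than a factor of 2. Ctgf and Cyr61, the most abundant transcripts of the group, had nearly equal means in the 2 groups. All 10 genes passed the filter on low counts. The 4 genes that passed the test are 40.0% of the group, beside 37.1% of all genes tested, so the share is near the background. The higher genes, 2 of 10, stand beside 17.1% of all genes called higher, and the lower genes, also 2 of 10, beside 20.0% called lower. With a fold change above 2 as well, 1 was higher (3.87% of all genes) and 1 lower (7.78%), and 11.6% of all genes were called in either direction. For 5 of the 10 the CPM ranges were separate, beside 50.4% of all genes. The median log2 fold change of the 10 was −0.07, and that of all genes tested was 0.00.

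**Figure D1:**
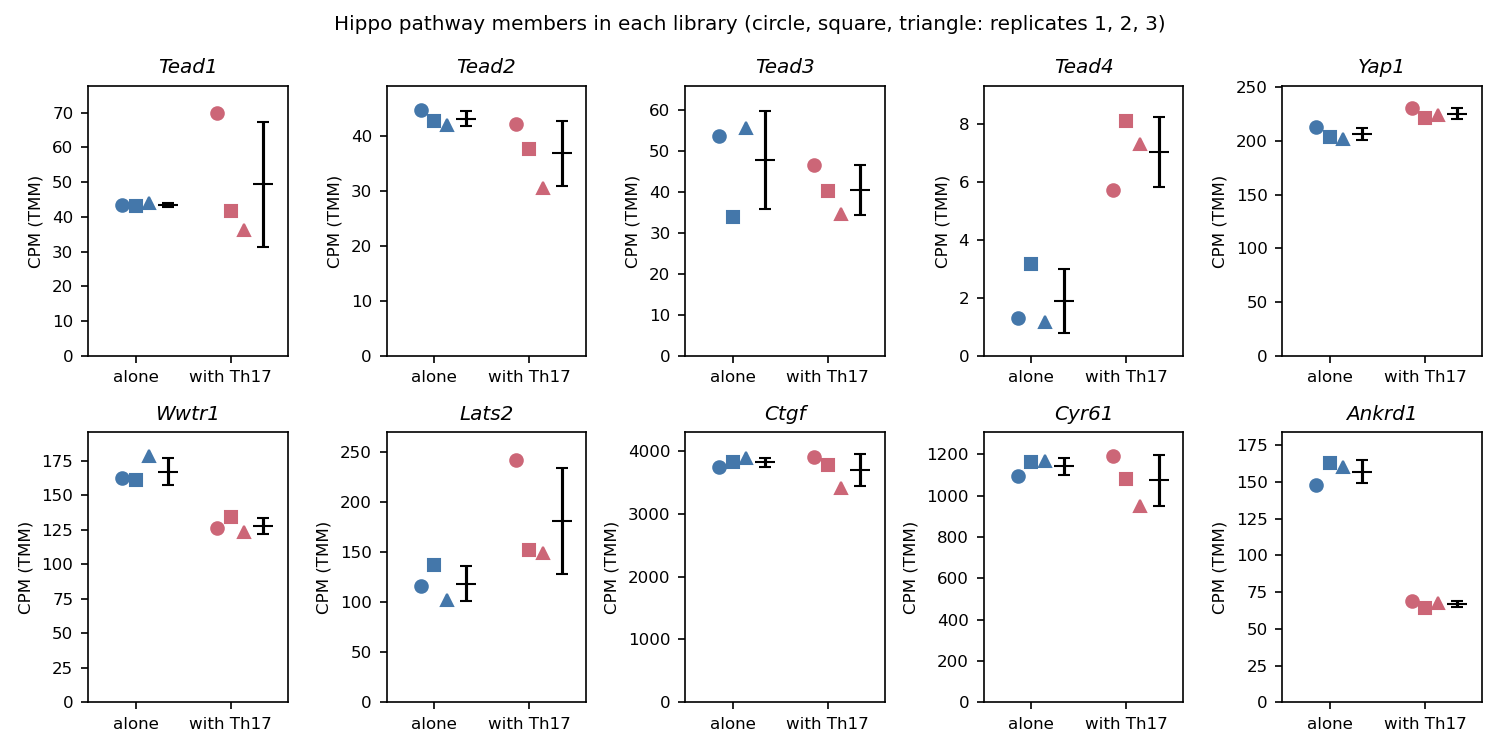
Each panel plots 1 gene, with TMM-normalised CPM on a linear axis that starts at 0, for fibroblasts alone (blue) and with Th17 cells (red). Circles, squares and triangles are replicates 1, 2 and 3, and the black mark is the mean with its SD (n = 3). The groups are well apart for Tead4, Wwtr1 and Ankrd1, and cocultured replicate 1 stands above the others for Tead1 and Lats2.

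Of the 4 TEAD factors, which share a DNA-binding domain and a YAP-binding domain, only Tead4 passed the test. Tead4 (ENSMUSG00000030353, GRCm38 chromosome 6, 128224288 to 128300823, minus strand, protein-coding) had 17, 40 and 14 counts in the lone libraries and 77, 103 and 96 counts in the cocultured ones. Each cocultured library was above each lone library, although lone replicate 2 held more than its companions. In CPM the mean went from 1.89 ± 1.10 to 7.05 ± 1.21 (SD, n = 3 each), a log2 fold change of 1.89 (SE 0.336, 95% interval 1.13 to 2.65, edgeR adjusted p = 0.00207). Leaving out lone replicate 2 gave 2.48. On the log2(FPKM + 1) scale, where the pseudocount understates low genes, it was 0.85. A processed pseudogene lies within the gene on the opposite strand, and the sources used here do not say whether counting used strand.

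Tead1 (ENSMUSG00000055320, chromosome 7, 112679318 to 112906807, plus strand) had 43.3, 43.1 and 44.1 CPM alone and 70.0, 41.8 and 36.3 CPM with Th17 cells. The lone libraries were almost the same, whereas the cocultured libraries fell on either side of them, with replicate 1 far above. Its log2 fold change was 0.18 (SE 0.209, 95% interval −0.29 to 0.66, edgeR adjusted p = 0.528), and without cocultured replicate 1 it was −0.15. Tead2 (ENSMUSG00000030796, chromosome 7, 45215753 to 45233635, plus strand) had 44.8, 42.7 and 42.1 CPM alone and 42.3, 37.7 and 30.6 CPM with Th17 cells. These ranges overlapped, and the log2 fold change was −0.23 (95% interval −0.49 to 0.03, edgeR adjusted p = 0.152). Without cocultured replicate 1 it was −0.34 and passed (edgeR adjusted p = 0.0478). Tead3 (ENSMUSG00000002249, chromosome 17, 28331671 to 28350805, minus strand) had 53.7, 34 and 55.6 CPM alone and 46.6, 40.3 and 34.6 CPM with Th17 cells. Lone replicate 2 lay below each cocultured library, and the other lone libraries lay above them. The log2 fold change of Tead3 was −0.24 (95% interval −0.65 to 0.18, edgeR adjusted p = 0.347), and without lone replicate 2 it was −0.43 and passed (edgeR adjusted p = 0.0351). Tead2 overlaps Cd37 on the opposite strand, which had between 0 and 12 counts per library.

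Levels of different genes were compared per length, in the authors' FPKM (fragments per kilobase of gene length, scaled by library size). Among the TEAD factors, Tead3 (5.73 ± 1.44 FPKM, SD, n = 3) and Tead2 (5.42 ± 0.162) were the most abundant in lone fibroblasts, and these neighbours did not differ beyond their spread. Tead1 followed at 1.74 ± 0.0263 FPKM and Tead4 was the lowest at 0.377 ± 0.221 FPKM. With Th17 cells the same order held, at 5.08 ± 0.742, 4.82 ± 0.755, 2.07 ± 0.755 and 1.47 ± 0.248 FPKM for Tead3, Tead2, Tead1 and Tead4. In this FPKM the mean of Tead4 then differed from that of Tead1 by less than the SD of Tead1. Cocultured replicate 1 widened that SD (2.93 FPKM, against 1.74 and 1.53 in replicates 2 and 3). Tead4 made up 1.88%, 5.36% and 1.70% of the summed TEAD FPKM in the lone libraries and 7.72%, 12.6% and 13.4% in the cocultured libraries. The groups did not overlap, and the mean share rose by 8.26 percentage points, but 3 libraries against 3 cannot reach a p below 0.1, which the exact two-sided permutation test gave. The summed TEAD level was 13.3 ± 1.29 FPKM alone and 13.4 ± 2.02 FPKM with Th17 cells (SD, n = 3 each, exact permutation p = 1.0). The FPKM values imply gene lengths that differ from the annotated exon length, as for Tead1 with 24395 against 13570 bases. With annotated exon lengths, a choice made after seeing the data, the share of Tead4 rose by 7.69 percentage points and Tead2 in place of Tead3 was the most abundant TEAD. The cocultured shares of Tead1 and Tead4 were then 18.5 ± 3.84% and 10.4 ± 2.93% (SD, n = 3 each), more than 1 SD apart.

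**Figure D2:**
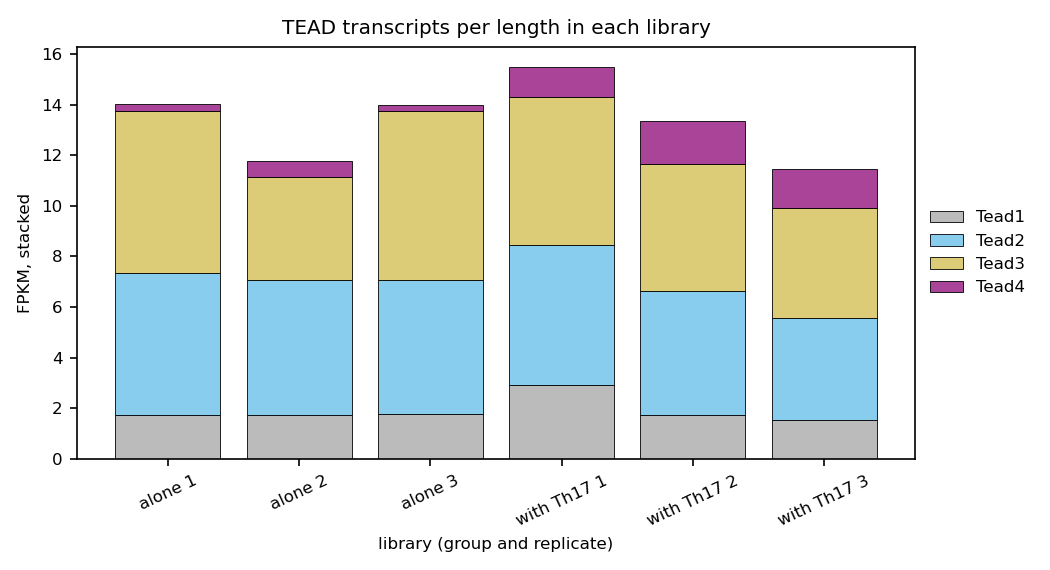
Stacked bars show the FPKM of Tead1, Tead2, Tead3 and Tead4 in each library, lone libraries on the left and libraries with Th17 cells on the right, on a linear axis that starts at 0. The Tead4 segment is thicker in all 3 cocultured libraries (1.20 to 1.68 FPKM) than in the lone ones (0.238 to 0.632 FPKM), while the bar heights overlap between groups.

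Of the 2 coactivators, Wwtr1 fell by a small amount and Yap1 did not pass the test. Wwtr1, which encodes TAZ (ENSMUSG00000027803, chromosome 3, 57455649 to 57575910, minus strand), had 162, 161 and 178 CPM alone and 126, 134 and 123 CPM with Th17 cells. Each cocultured library lay below each lone one, and the log2 fold change was −0.39 (SE 0.067, 95% interval −0.54 to −0.23, edgeR adjusted p = 0.00181). Yap1 (ENSMUSG00000053110, chromosome 9, 7931999 to 8004596, minus strand) had 213, 204 and 202 CPM alone and 231, 221 and 224 CPM with Th17 cells. The ranges did not overlap, yet the log2 fold change of 0.13 (95% interval 0.00 to 0.26) did not pass (edgeR adjusted p = 0.102). With library size as the only scaling it was 0.19 and passed (edgeR adjusted p = 0.0224). Per length, Wwtr1 stood at 1.03, 1.07 and 1.19 times Yap1 in the lone libraries and at 0.739, 0.820 and 0.745 times in the cocultured ones. These FPKM values imply lengths of 8223 bases for Wwtr1 and 11147 for Yap1, against annotated exon lengths of 4779 and 9257. With the annotated lengths Wwtr1 would stay above Yap1 in every library, so only the fall in the ratio holds with both lengths. The mean log2 ratio differed by −0.52, and it was lower in each of 3 cocultured libraries than in any lone one (exact permutation p = 0.1, the smallest possible).

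Lats2, the kinase that phosphorylates YAP and TAZ and is itself induced by them (ENSMUSG00000021959, chromosome 14, 57642077 to 57758388, minus strand), had 116, 137 and 102 CPM alone. With Th17 cells it had 242, 152 and 149 CPM. The groups did not overlap, and cocultured replicate 1 was 1.61 times the mean of the other cocultured libraries. Lats2 rose with a log2 fold change of 0.61 (SE 0.186, 95% interval 0.19 to 1.03, edgeR adjusted p = 0.0301). The value fell to 0.34 without cocultured replicate 1 and no longer passed (edgeR adjusted p = 0.0558), nor did it pass without lone replicate 1 (0.59), without lone replicate 3 (0.51) or with DESeq2 (0.61, adjusted p = 0.0691), although the size of the change was much the same in these. With lone replicate 2 left out beside cocultured replicate 1, it was 0.46 and passed (edgeR adjusted p = 0.013). The interval that the table gives for Lats2 overlaps Xpo4 and the annotated Gm49361 on the same strand, which makes its counts uncertain. Xpo4 itself had 22.1 to 29.4 CPM alone and 28.2 to 32.3 CPM with Th17 cells (edgeR adjusted p = 0.171). The paralog Lats1 did not pass the test, at 128 to 149 CPM alone and 123 to 132 CPM with Th17 cells (log2 fold change −0.11, 95% interval −0.27 to 0.06, edgeR adjusted p = 0.292).

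The 3 target members did not move together. The promoters of the targets are shown because TEAD factors recognise the core motif GGAATG, read as CATTCC on the other strand. In the RefSeq promoter set (GRCm38.p6, 250 bases before to 50 bases after each start, 32851 promoters), 14.7% of promoters held it on either strand. A promoter was found for 7 of the 10 members, and 6 of these held the motif in at least 1 promoter, beside 16.6% of all genes. The members were chosen as pathway genes, and Tead3 has 3 promoters and Wwtr1 and Lats2 have 2 each. Whether the motif is enriched among the members was not tested. Tead1, Tead4 and Ctgf had no entry. The 250 bases upstream of Cyr61 (chr3:145649986-145650235, minus strand) and of Ankrd1 (chr19:36119845-36120094, minus strand) are printed 5′ to 3′ with the motif in capitals.
Cyr61: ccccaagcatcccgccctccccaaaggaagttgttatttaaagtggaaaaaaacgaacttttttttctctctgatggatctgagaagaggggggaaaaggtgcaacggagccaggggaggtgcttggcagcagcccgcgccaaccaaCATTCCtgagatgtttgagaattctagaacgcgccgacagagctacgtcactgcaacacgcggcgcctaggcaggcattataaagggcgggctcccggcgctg
Ankrd1: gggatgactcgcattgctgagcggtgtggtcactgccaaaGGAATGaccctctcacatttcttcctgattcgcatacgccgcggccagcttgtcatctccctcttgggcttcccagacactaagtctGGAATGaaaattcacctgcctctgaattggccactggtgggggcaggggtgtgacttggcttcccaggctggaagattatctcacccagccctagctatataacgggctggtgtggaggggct
Cyr61 held the motif once, starting 103 bases before the annotated start, and Ankrd1 held it at 2 places, 210 and 123 bases before it. These are matches of letters and not shown to be bound sites.

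Ctgf, a secreted matricellular protein of the CCN family (ENSMUSG00000019997, chromosome 10, 24595442 to 24598683, plus strand), had 48199, 48222 and 45981 counts alone and 52358, 47988 and 44804 counts with Th17 cells. In CPM this was 3744, 3813 and 3891 alone and 3896, 3773 and 3412 with Th17 cells. The ranges overlapped, and the interval of the log2 fold change, −0.18 to 0.09 around −0.05, leaves room only for small differences (edgeR adjusted p = 0.58). Cyr61, the CCN family member whose upstream sequence is printed above (ENSMUSG00000028195, chromosome 3, 145646976 to 145649981, minus strand), had 1096, 1161 and 1168 CPM alone and 1194, 1080 and 949 CPM with Th17 cells. Again the cocultured libraries fell on both sides of the lone ones, with a log2 fold change of −0.09 (95% interval −0.27 to 0.10, edgeR adjusted p = 0.436). Per length, Ctgf (784 ± 17.6 FPKM alone, SD, n = 3) and Cyr61 (553 ± 20.6 FPKM alone) ranked above 99.8% and 99.7% of the genes with a nonzero value.

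Ankrd1, a nuclear and sarcomeric ankyrin repeat protein (ENSMUSG00000024803, chromosome 19, 36111965 to 36119844, minus strand), behaved differently from Ctgf and Cyr61. It had 1911, 2065 and 1895 counts alone and 923, 820 and 888 counts with Th17 cells, or 148, 163 and 160 CPM against 68.7, 64.5 and 67.6 CPM. The spread within each group was far smaller than the gap between them. Ankrd1 fell with a log2 fold change of −1.23 (SE 0.066, 95% interval −1.38 to −1.08, edgeR adjusted p = 9.9e-07), and under the 16 alternatives it stayed between −1.28 and −1.15 with an adjusted p of at most 0.000139. The log2 ratio of Ankrd1 to Ctgf FPKM, compared after the values had been seen, was −3.23, −3.12 and −3.17 alone and −4.40, −4.44 and −4.23 with Th17 cells. The ratio was thus lower in each of 3 cocultured libraries. This restates the fall of Ankrd1 beside a nearly unchanged Ctgf and is not separate support for it.

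The motif also occurred in promoters of Yap1, Wwtr1, Lats2 and Tead3, and in that of Ccl20, the chemokine gene that the study ties to TEAD4. The sites with 10 bases on either side are shown for Yap1, Wwtr1, Lats2 and Ccl20 to let their flanks be compared, and the 4 sites of Tead3 are not printed.
Yap1: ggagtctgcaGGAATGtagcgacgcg
Wwtr1: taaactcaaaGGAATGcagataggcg
Lats2: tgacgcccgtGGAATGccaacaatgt
Ccl20: ttcttgtgtaCATTCCcagtattttg
The site of Yap1 (chr9:8004722-8004747, minus strand) starts 141 bases before the annotated start, and that of Wwtr1 (chr3:57576031-57576056, minus strand) 170 or 136 bases before, depending on which of its 2 starts is used. The site of Lats2 (chr14:57746104-57746129, minus strand) lies 4 bases after the start of 1 of its 2 promoters. The site of Ccl20 (chr1:83116711-83116736, plus strand) starts 45 bases before the start. Of the genes with these matches that were measured, Ankrd1 and Wwtr1 fell, Lats2 rose, and Cyr61, Yap1 and Tead3 did not pass the test. Ccl20 fell, from 30, 31 and 35 counts to 0, 5 and 9 counts (log2 fold change −2.82, edgeR adjusted p = 0.00412). This value was −2.23 without cocultured replicate 1, −3.68 without cocultured replicate 3 and −0.86 on the log2(FPKM + 1) scale, and passed in each case.

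To see whether other targets moved like Ankrd1 or like Ctgf, the 18 further genes of a published YAP/TAZ target signature were examined. The group did not move one way: 6 rose, 7 fell and 5 did not pass, with a median log2 fold change of −0.02. The 13 that passed are 72.2% of the 18, beside 37.1% of all genes and 43.9% of the 4950 genes with a mean of at least 500 counts. Not all of the 18 reach that mean (Nt5e had 15 to 33 counts per library), so these shares are not matched for abundance. Foxf2, a forkhead factor of mesenchyme, rose most, from 11.9, 13.3 and 9.31 CPM to 36.4, 33.3 and 31.3 CPM (log2 fold change 1.55, SE 0.137, edgeR adjusted p = 2.73e-05). Fjx1, related to the fly gene four-jointed, rose from 12.4, 16.7 and 14.4 CPM to 23.7, 27.4 and 27.2 CPM (log2 fold change 0.85, edgeR adjusted p = 0.000832). For both genes each cocultured library was above each lone one. At the other end, Tgfb2, a transforming growth factor-β ligand, fell from 44.7, 41.1 and 41.3 CPM to 12.1, 13.9 and 9.21 CPM (log2 fold change −1.85, SE 0.141, edgeR adjusted p = 9.76e-06). Ccdc80, an extracellular matrix protein, fell from 136, 139 and 289 CPM to 114, 59.4 and 50.6 CPM (log2 fold change −1.33, SE 0.357, edgeR adjusted p = 0.0166). Lone replicate 3 held about as much Ccdc80 as the other lone libraries combined, and the call was lost without cocultured replicate 2 (−1.19, edgeR adjusted p = 0.0677) or without cocultured replicate 3 (−1.12, edgeR adjusted p = 0.0524). Igfbp3 (log2 fold change −0.83) and Axl (−0.38) also fell, and Crim1 (0.55) and Arhgef17 (0.55) rose, all with non-overlapping groups. These genes lay outside the rule for named genes and were chosen after the values were seen. The groups did not overlap for 14 of the 18 targets, beside 50.4% of all genes tested. Non-overlap therefore does not set these genes apart. Crim1 overlaps Fez2 on the opposite strand, which had 1223 to 1637 counts per library.

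**Figure D3:**
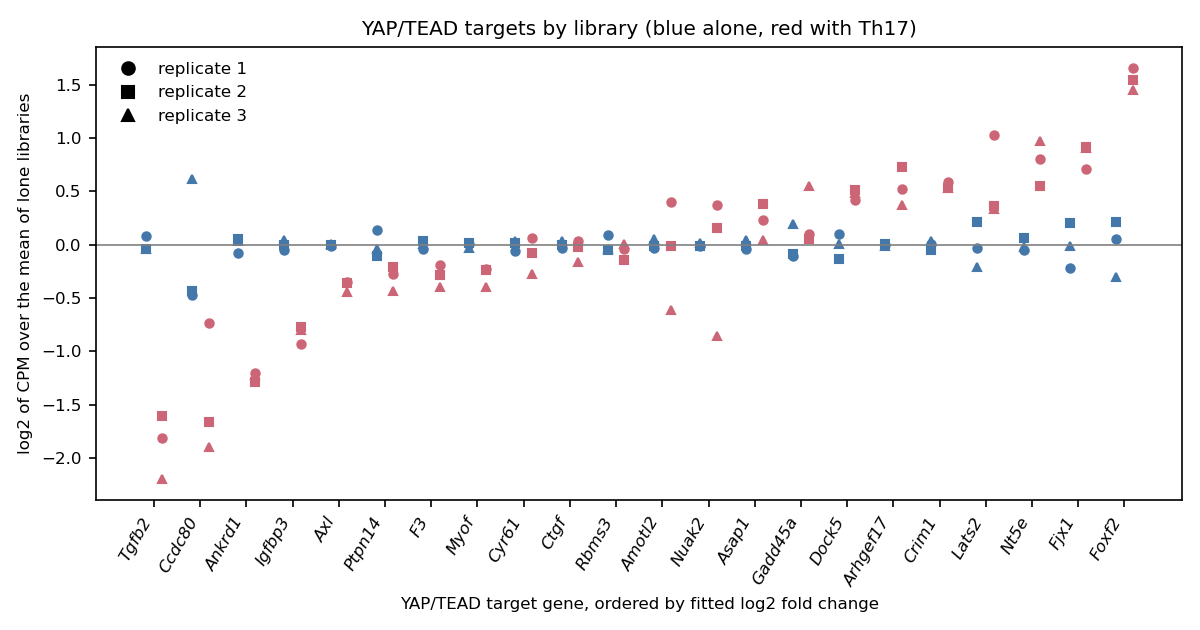
For the 22 genes of the signature, 4 of them members, each point is the log2 of a library's CPM over the mean of the lone libraries, with lone libraries in blue, cocultured libraries in red, and symbols for replicates 1, 2 and 3. Genes run from the lowest fitted log2 fold change (Tgfb2, −1.85) to the highest (Foxf2, 1.55), and in the middle the cocultured points of Amotl2 and Nuak2 spread to both sides of 0.

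The cocultured libraries differed among themselves for several of these genes. Over all genes, cocultured replicate 3 stood furthest apart, with a chi-square per gene of 15.2 and 14 against cocultured replicates 1 and 2, beside 8.50 between those and 6.38 to 7.35 among lone libraries. Cocultured replicate 1 was the highest of its group for 8 of the 10 members, beside 31.8% of all genes tested, and for 8 of the 18 other targets. Tead1 spanned a factor of 1.93 between the highest and lowest cocultured library, and 2.10% of the 7909 genes with a mean of at least 200 counts were as wide. The lone libraries spanned 1.02 for the same gene. Amotl2, an angiomotin family protein and YAP target, had 465, 350 and 232 CPM with Th17 cells, between which its 345 to 365 CPM in lone libraries fell. Nuak2, a kinase of the AMPK family, had 31.1, 26.9 and 13.2 CPM with Th17 cells and 23.9 to 24.4 CPM alone. For both genes cocultured replicate 3 lay below the lone libraries and cocultured replicate 1 above them. The mean differences of these 2 genes were close to 0 (log2 fold changes of −0.02 each) with wide 95% intervals, −0.47 to 0.43 for Amotl2 and −0.59 to 0.55 for Nuak2. Both were chosen after the values had been seen. The median of the 18 targets was −0.16 when cocultured replicate 1 was left out and 0.14 when cocultured replicate 3 was, so its sign rests on these libraries.

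Leaving out Lats2, counted among the members above (log2 fold change 0.61, edgeR adjusted p = 0.0301), the kinase module upstream of YAP changed little. Of 10 genes for the MST kinases, their scaffolds and the kinases that act beside or above them, 3 rose, 1 fell and 6 did not pass, and none changed more than 2-fold. The share that passed, 40.0%, is near the 37.1% of all genes, and the median log2 fold change was −0.01. Map4k4, a kinase that acts on LATS in parallel to MST, rose from 748, 747 and 755 CPM to 1068, 1081 and 953 CPM (log2 fold change 0.46, SE 0.061, edgeR adjusted p = 0.000365). Mob1b, a LATS cofactor, rose by 0.43 (edgeR adjusted p = 0.0209), and Stk4, which encodes MST1, by 0.32 (edgeR adjusted p = 0.00768) on the log2 scale. Sav1, the MST scaffold, went from 94.2, 101 and 97.7 CPM to 79.0, 81.2 and 77.3 CPM and fell by 0.30 (edgeR adjusted p = 0.00498). Taok3 had a log2 fold change of −0.40 (95% interval −0.75 to −0.05, edgeR adjusted p = 0.0727), and without cocultured replicate 1 it was −0.60 and passed (edgeR adjusted p = 0.0049), as it did with DESeq2 (−0.40, adjusted p = 0.0271). Mob1b lost its call without lone replicate 2 (0.36, edgeR adjusted p = 0.0836) and without lone replicate 3 (0.46, edgeR adjusted p = 0.0502). Stk4 overlaps Tomm34 and Sav1 overlaps Atl1 on the opposite strand, with 393 to 525 and 44 to 100 counts per library for these neighbours. Stk4 was named after its values had been seen.

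Among 11 upstream regulators, 2 rose, 3 fell and 6 did not pass (45.5% passed, near the 37.1% of all genes, with a median log2 fold change of 0.04). The list includes the giant cadherins that signal to the pathway at cell contacts. Dchs1, which encodes a ligand of Fat4, fell from 14.1, 14.4 and 15.1 CPM to 4.54, 4.32 and 3.58 CPM (−1.81 on the log2 scale, SE 0.140, with an edgeR adjusted p of 1.14e-05). Its receptor Fat4 rose from 36.0, 30.9 and 34 CPM to 52.5, 56.9 and 47.2 CPM (log2 fold change 0.63, SE 0.097, edgeR adjusted p = 0.000836). The ligand and the receptor thus moved in opposite directions, each without overlap between groups. Fat1 fell by 0.31 on the log2 scale (edgeR adjusted p = 0.0121). Wwc1, which encodes the scaffold KIBRA, rose from 3.81, 3.87 and 3.64 CPM to 7.0, 8.41 and 7.23 CPM (log2 fold change 1.0 after rounding and under the 2-fold limit, edgeR adjusted p = 0.00103), and Rassf1, a scaffold for MST kinases named after its values had been seen, fell by 0.25 (edgeR adjusted p = 0.021). Rassf1 lost its call with library size only and with either limma scale. The call was also lost without lone replicate 1, lone replicate 3, cocultured replicate 1 or cocultured replicate 2. Nf2, the gene of merlin, had a log2 fold change of 0.12 (95% interval −0.06 to 0.30, edgeR adjusted p = 0.273). On the opposite strand, Fat1 and Fat4 overlap antisense genes with at most 4 counts per library, and Dchs1 a pseudogene with 0.

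Of 8 genes for proteins that bind YAP or TEAD, 6 were expressed enough to test, and 2 rose and 2 fell (median −0.05). The 4 that passed are 66.7% of the 6, beside 37.1% of all genes. Amot, the angiomotin that binds YAP in the cytoplasm, showed a marked increase from 17.0, 13.8 and 15.3 CPM to 38.7, 38.0 and 40.1 CPM (log2 fold change 1.34, SE 0.101, edgeR adjusted p = 9.47e-06). The related Amotl1 fell from between 246 and 257 CPM to between 188 and 221 CPM (log2 fold change −0.29, edgeR adjusted p = 0.0107). Vgll4, a TEAD-binding repressor that competes with YAP, rose from 15.8, 19.5 and 17.4 CPM to 26.9, 27.0 and 20 CPM (log2 fold change 0.49, edgeR adjusted p = 0.0248). Its call was lost in 4 of the 6 fits that left out 1 library, with adjusted p from 0.0654 to 0.0897 in those fits without lone replicate 1, lone replicate 3, cocultured replicate 1 or cocultured replicate 2, while the log2 fold change stayed between 0.41 and 0.48. Ptpn14, a phosphatase that binds YAP, fell by 0.30 (edgeR adjusted p = 0.027), and this too was lost without lone replicate 1, cocultured replicate 1 or cocultured replicate 3 (edgeR adjusted p from 0.0507 to 0.0913). The Ptpn14 call was also lost with library size as the only scaling (edgeR adjusted p = 0.0575) and with limma on log2(FPKM + 1) and log2(FPKM + 0.1) (limma adjusted p = 0.119 and 0.115). The same held without lone replicate 2 and cocultured replicate 1 together (edgeR adjusted p = 0.0579). Vgll3, a TEAD cofactor of mesenchymal cells, was the most abundant Vgll transcript at 228 to 234 CPM alone and 212 to 230 CPM with Th17 cells (log2 fold change −0.09, 95% interval −0.22 to 0.05, edgeR adjusted p = 0.29). Vgll2 had 0 counts and Vgll1 at most 1 count in each library.

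**Figure D4:**
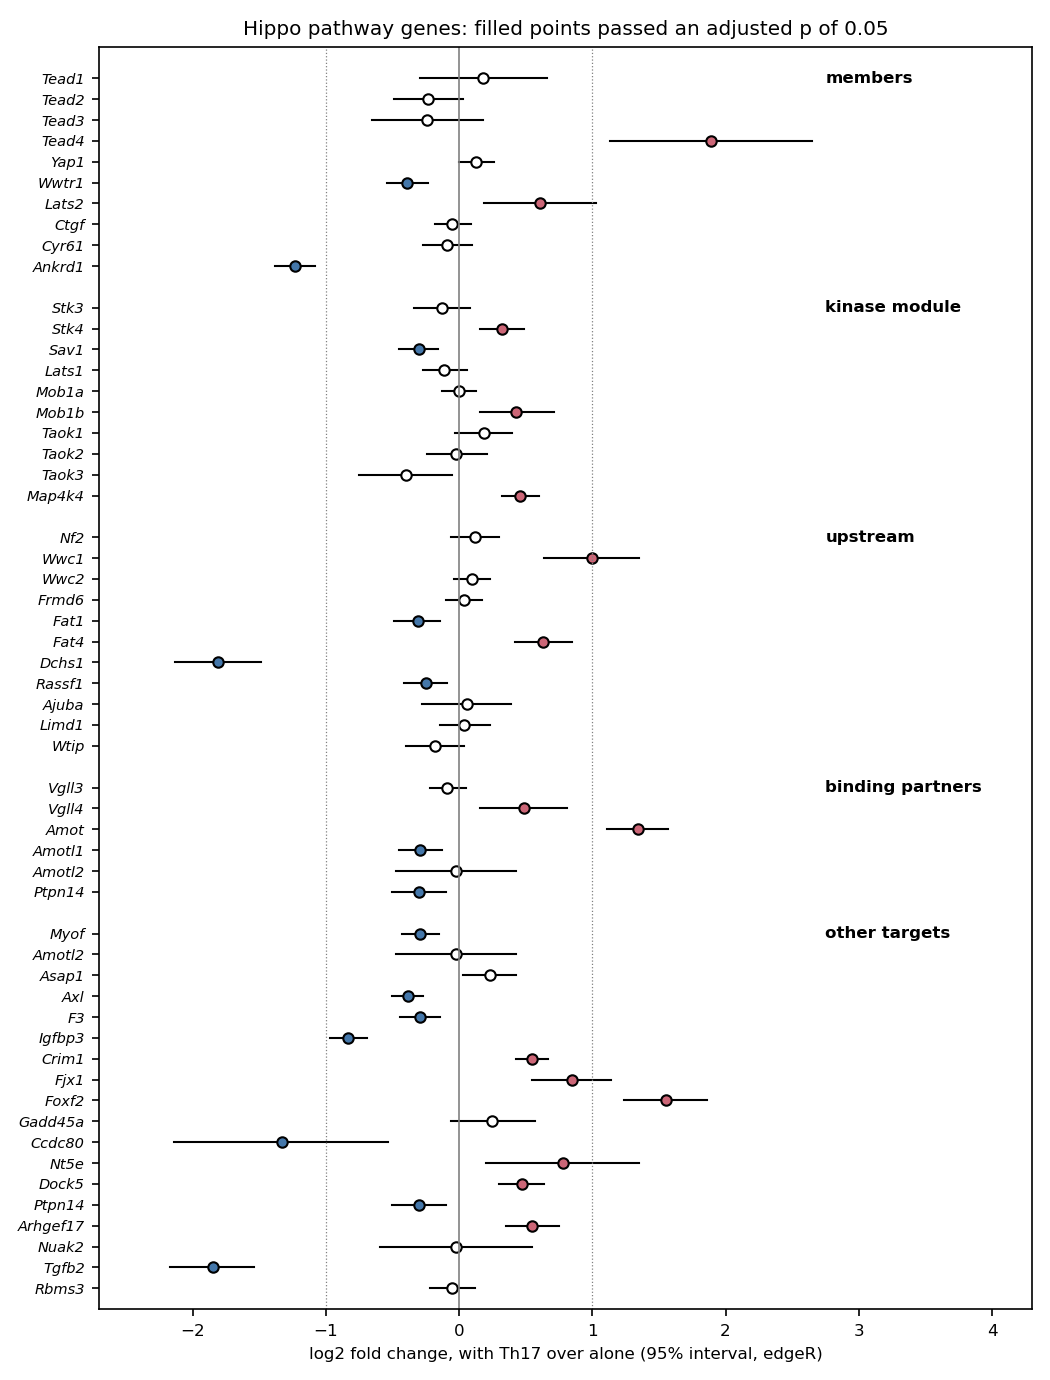
Points are log2 fold changes, with Th17 cells over alone, and bars their 95% intervals from the edgeR fit, for the 10 members and the 4 further lists, with Amotl2 and Ptpn14 shown in 2 of them. Filled points passed an adjusted p of 0.05 (red higher, blue lower), and dotted lines mark a 2-fold change, beyond which lie Tead4, Amot and Foxf2 on the right and Ankrd1, Dchs1, Ccdc80 and Tgfb2 on the left.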

How the data were processed

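RNA of renal fibroblasts, 3 libraries alone and 3 after Th17 coculture, was sequenced. Reads passed through Seqtk and then HISAT2 2.0.4 (mm10, per the labels), and the authors deposited fragment counts per gene from StringTie 1.3.3b. The authors also deposited FPKM values beside the counts. Use of strand, handling of multiply mapped fragments and the annotation release are not given in the sources used here. Of the gene identifiers, 34267 occur in GENCODE M21 (GRCm38) and 99.9% of these overlap the position in the table.

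The count test was edgeR 4.0.16 under R 4.3.3 (filterByExpr with a minimum count of 10, TMM, glmQLFit, glmQLFTest, Benjamini-Hochberg over all 13088 genes tested). The biological coefficient of variation was 11.6%. SE is the log2 fold change divided by the square root of F, and 95% intervals use the t distribution of that fit. Shares and ratios of FPKM were compared with exact two-sided permutation tests. Promoters are from RefSeq, searched on both strands. The members, lists and tests were chosen with earlier results of these data known. Named genes are the members, genes of the other lists past the test and a fold change of 2, the 2 highest and 2 lowest of each list, and Ccl20. Lists are described by counts and medians, with no set test.

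Alternatives were DESeq2 1.42.0, relative log expression, upper quartile and library size scaling, other filters, leaving out each library, a replicate block, and limma 3.58.1 on log2(FPKM + 1) and log2(FPKM + 0.1). Leaving out lone replicate 2 and cocultured replicate 1 together, and annotated exon lengths, were alternatives chosen after seeing the data. The tests were also run on counts simulated with edgeR's own fitted dispersions. That simulation takes the model as given and changed far fewer genes than were called here, so it cannot show that the model holds for these data. TEAD protein sequences were not analysed here.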

Additional observations from a re-analysis of the deposited data

How the results depend on the processing

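Tead4, Wwtr1 and Ankrd1 kept their direction and passed the test under all 16 alternatives, with log2 fold changes from 0.85 to 2.61, −0.42 to −0.30 and −1.28 to −1.15. Ctgf, Cyr61 and Tead1 did not pass under any of them. The number of higher members, 2, was 1 with DESeq2, 3 with library size only and with either limma scale, where Yap1 passed, and 1 to 2 when single libraries were left out. That of lower members, 2, was 2 to 3 without single libraries. The number of members over 2-fold higher, 1, was 0 with limma on log2(FPKM + 1), the pseudocount of which shrinks Tead4. In the kinase module the number of lower genes, 1, was 2 with DESeq2, 2 with the replicate block (Taok3, −0.42, edgeR adjusted p = 0.0189) and 1 to 2 without single libraries. Among binding partners the number of lower genes, 2, was 1 with library size only and 1 with either limma scale. Leaving out single libraries gave 1 to 2 higher and 1 to 2 lower partners with medians from −0.20 to 0.07, and medians of the other targets from −0.16 to 0.14. Without lone replicate 2 and cocultured replicate 1 there was 1 higher and 1 lower partner with a median of −0.21, and the target median was −0.18. The rise in the Tead4 share was 7.18 to 10 percentage points without single libraries and 4.07 when counts were not divided by length, and the Wwtr1 to Yap1 ratio changed by −0.563 to −0.454 without single libraries. The causes of these changes beyond those named were not tested. Same-numbered libraries did not deviate together (correlations of 0.016, −0.026 and −0.004 over 13088 genes), so the numbers were not taken to pair them, and the replicate block gave 4513 genes in place of 4856 at an adjusted p below 0.05. Lone replicate 1 correlated best with its own number, but not every sample did. In the block, exact sign-flip tests of the Tead4 share (8.26) and of the Wwtr1 to Yap1 ratio (−0.515) had p = 0.25, the smallest possible. Depth limits Tead4, with 14 to 40 counts in lone libraries, and Ccl20, with 0 to 9 in cocultured ones.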
